A study of Mus musculus with 6 samples.

Results

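The genes examined were 34 members of the Eph, ephrin, Slit, Robo and netrin guidance systems, out of 32285 genes in the count tables, read across cell classes of the mouse septal area. They were chosen by gene symbol and comprise 14 Eph receptors, 8 ephrins, 3 Slits, 3 Robos, netrin 1 and its receptors Dcc and Unc5a to Unc5d. The study profiled single nuclei from the septal area (wild type mice) in 6 libraries made with the Chromium 3' v3 chemistry. All 6 libraries belong to 1 group, and no treatment, age, sex, strain or pooling of animals is given in the labels, so the comparisons are between cell classes within libraries. The labels do not say that the libraries came from separate animals, and p-values then measure the spread between these libraries, which may be technical.

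Eph receptors are receptor tyrosine kinases whose ligands, the ephrins, sit on the surface of neighbouring cells. The EphA receptors mostly bind the lipid-anchored ephrin-As and the EphB receptors mostly bind the transmembrane ephrin-Bs, and signals pass into both cells. Slits are secreted ligands of the Robo receptors, and netrin 1 is a secreted ligand that attracts growth cones through Dcc and repels them through the Unc5 receptors. In the forebrain these systems are known for steering axons and migrating neuroblasts, for ordering the hippocampal projection to the septum, for the dispersal of oligodendrocyte precursors and for arterial and venous identity of vessels.

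The 6 libraries held 70183544 to 95175260 UMIs, and any 2 libraries shared 12 to 43 cell barcodes. Of 54623 barcodes with 500 or more detected genes, 45883 were assigned to a class from marker genes, and 5952 carried markers of more than 1 class and were removed. The other 2788 had too few markers or too small a margin between classes. The classes are called by their markers and each name means "-like". They comprised 21126 neurons, 22990 glia (9464 astrocytes, 7179 oligodendrocytes, 2394 oligodendrocyte precursors, 2934 ependymal nuclei and 1019 microglia), 1387 vascular nuclei (815 endothelial, 461 mural and 111 fibroblast) and 380 neuroblasts. Among neurons, 14251 were GABAergic, 766 glutamatergic and 326 cholinergic, and the GABAergic nuclei included 8991 lateral septum-like, 380 striatal-like and 179 medial septum-like ones. Marker genes kept out of the assignment were compared among the broad classes, among the GABAergic, glutamatergic and cholinergic types, or among the GABAergic subclasses. Within these sets they were all highest in their own class for 11 of 16 classes, and at least 3 were for each of the others. Those not highest were Syn2 and Stmn2 (neurons), Calcr (lateral septum-like), Hapln1 (medial septum-like), Gjb6 (astrocytes) and Tagln (mural nuclei). In the medial septum-like class Pvalb, one of its assignment markers, stood at only 2.23 ± 1.65 CPM (SD, n = 6). Levels are UMI counts scaled to the total UMIs of a class in a library (CPM), and values are given as the lowest, median and highest of the 6 libraries or as mean ± SD with n = 6. CPM of different genes are not set against each other.

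RNA of neurons was present in the other classes. The 5 neuron assignment markers summed to 8876 CPM in neurons, and to 10.7% of that level in glia, 18.3% in endothelial and 16.4% in mural nuclei. Taken one by one, 8 neuronal and GABAergic markers reached 4.75% to 51.4% of their neuron level in glia, with a median of 11.8%, and 7.20% to 90.8% in vascular nuclei, with a median of 18.9%. The upper end was set by Slc32a1 in both. The same percentage was taken for the 23 members with at least 5 CPM in neurons. Those above all 8 markers were Epha4, Ephb1, Ephb6, Efna5, Efnb2, Slit2, Robo2 and Ntn1 in astrocytes, Epha4, Ephb1, Efnb3, Unc5b, Unc5c and Dcc in oligodendrocytes, and Epha5, Ephb2, Ephb6, Robo1, Unc5c, Dcc and Ntn1 in oligodendrocyte precursors. They were Efnb2, Slit2, Robo2, Unc5c and Ntn1 in ependymal nuclei, Unc5b in microglia, Epha4, Efnb2, Unc5b and Ntn1 in endothelial nuclei, Unc5b and Ntn1 in mural nuclei, Epha3, Epha7, Efnb2, Robo2 and Ntn1 in fibroblasts, and Ephb2 and Robo2 in neuroblasts. In glia as a whole 11 of the 23 were above the markers, and in vascular nuclei as a whole 5 (Epha4, Efnb2, Robo2, Unc5b and Ntn1). In the glial and vascular classes every other level of these 23 members was not above the markers, whether or not its percentage is printed below. The part of neuronal RNA in those levels was not tested. In neuroblasts the 8 markers stood at 15.3% to 264% of their neuron level, with a median of 94.5% and Gad1 highest. That range passes the neuron level itself, so in neuroblasts it cannot tell neuronal RNA from the class's own.

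**Figure D1:**
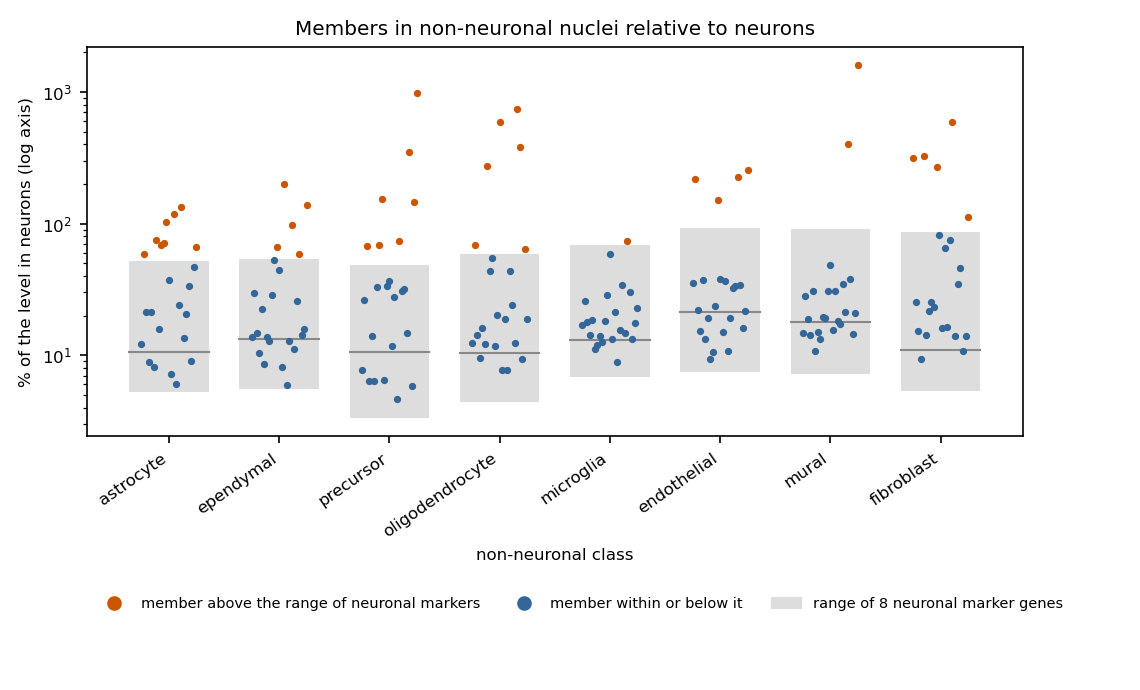
Level of each member with at least 5 CPM in neurons, as a percentage of its neuron level (log axis), in 8 non-neuronal classes. Grey bars span the same percentage for 8 neuronal marker genes and the grey line is their median, and orange points lie above that span, as for Ntn1 in mural nuclei and oligodendrocyte precursors and Unc5b in oligodendrocytes.

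The promoters of 3 receptors that were highest in oligodendrocytes are shown, because they behaved differently along the oligodendrocyte lineage. Ephb1 and Unc5b were far lower in precursors than in oligodendrocytes, and Unc5c was nearly level between them. Efnb3, the other member highest in oligodendrocytes, had no matched RefSeq promoter. Each sequence is the 250 bases before the gene's RefSeq start on GRCm38.p6, written 5′ to 3′ in the direction of the gene. Capitals mark matches on either strand to ACAAAG or ACAATG, the cores bound by SOX factors, or to the E-box CAGCTG.
Ephb1: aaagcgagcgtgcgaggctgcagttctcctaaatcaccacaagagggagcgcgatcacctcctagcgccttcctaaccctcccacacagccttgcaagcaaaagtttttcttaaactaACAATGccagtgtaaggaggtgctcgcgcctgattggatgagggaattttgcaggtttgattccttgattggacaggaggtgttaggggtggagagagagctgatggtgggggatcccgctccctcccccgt
Unc5b: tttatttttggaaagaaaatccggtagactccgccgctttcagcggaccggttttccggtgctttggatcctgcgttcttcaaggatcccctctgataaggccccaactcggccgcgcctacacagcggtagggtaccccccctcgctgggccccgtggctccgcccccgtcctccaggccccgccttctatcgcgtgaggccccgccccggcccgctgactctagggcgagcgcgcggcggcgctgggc
Unc5c: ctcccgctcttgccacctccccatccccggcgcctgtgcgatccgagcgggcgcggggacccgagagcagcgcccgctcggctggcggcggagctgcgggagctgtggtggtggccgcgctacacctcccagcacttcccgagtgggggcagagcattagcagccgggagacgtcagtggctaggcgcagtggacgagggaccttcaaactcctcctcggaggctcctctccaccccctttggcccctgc
The windows lie at chr9:102354694-102354943, minus strand (Ephb1), chr10:60831582-60831831, minus strand (Unc5b) and chr3:141465314-141465563, plus strand (Unc5c). The Ephb1 window held 1 match to ACAATG, and no other match lay in the 3 windows. Over 32544 RefSeq promoter windows of the same length, 16.5% held ACAAAG, 10.5% held ACAATG and 13.1% held CAGCTG. GC content was 54.000% for Ephb1, 66.8% for Unc5b and 71.2% for Unc5c, against a median of 52.4% over all windows. RefSeq promoters were matched for 29 of the 34 members. The labels and headers name no build for the counts, and the coordinates are those of the RefSeq table.

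**Figure D2:**
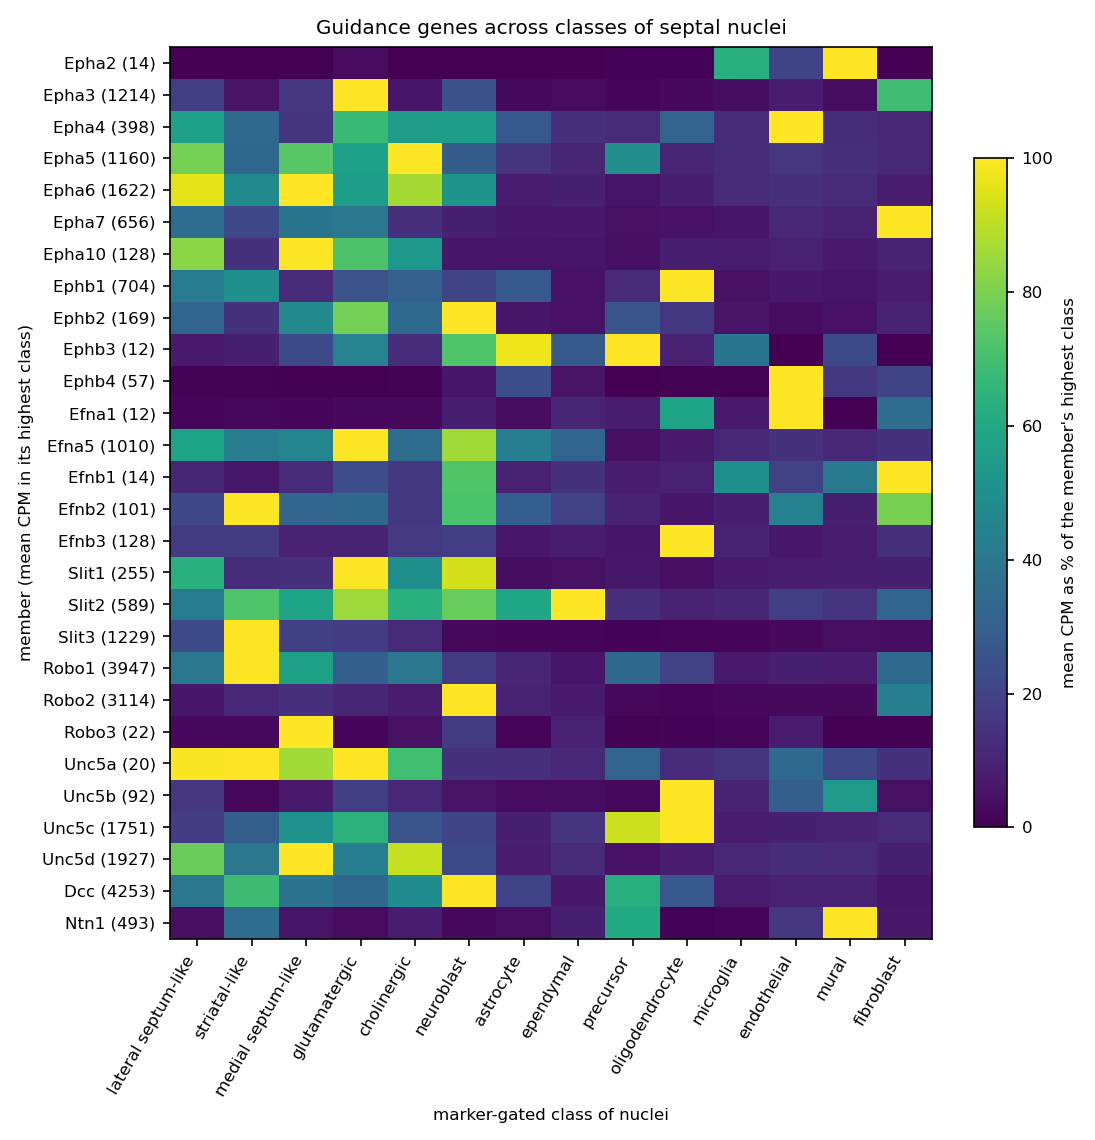
Mean level of the 28 members that reached 10 CPM in at least 1 of 14 classes, each as a percentage of the member's own highest class, whose mean CPM stands in brackets. Yellow cells mark the highest class, which was oligodendrocytes for Ephb1, Efnb3, Unc5b and Unc5c, striatal-like neurons for Slit3 and Robo1, and neuroblasts for Robo2 and Dcc.

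Of the 34 members, 28 reached a mean of 10 CPM in at least 1 class. The other 6, Epha1, Epha8, Ephb6, Efna2, Efna3 and Efna4, stayed under it in every class. For 9 members the highest class stood above the class next by mean with no overlap of libraries: Epha7 and fibroblasts, Ephb1, Efnb3 and Unc5b and oligodendrocytes, Ephb4 and endothelial nuclei, Slit3 and Robo1 and striatal-like neurons, Robo2 and neuroblasts, and Ntn1 and mural nuclei. For Ephb4 a class lower by mean did overlap: fibroblasts reached 31.4 CPM, and the lowest endothelial library was at 28.2 CPM. These orders are descriptions of the 6 libraries.

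Among the EphA receptors, Epha3, Epha4, Epha5, Epha6, Epha7, Epha8 and Epha10 were called higher in neurons than in glia. Epha3 had a mean of 268 CPM in neurons and 31.4 CPM in glia, which is 11.7% of the neuron level. Epha6 was at 1335, 1408 and 1498 CPM in neurons and at 108, 122 and 152 CPM in glia, a log2 difference (neurons minus glia) of 3.70 (SE 0.08, adjusted p = 4.14e-11). Its glial level was 8.92% of the neuron level, which is inside the range of the neuronal markers. Epha10, a receptor whose kinase domain lacks activity, was at 81.7, 85.96 and 89.1 CPM in neurons and 6.72, 7.52 and 9.56 CPM in glia, with a difference of 3.66 (SE 0.06, adjusted p = 1.44e-18) and a glial level at 9.18% of the neuron level. Neither gene's libraries overlapped between the classes. The neuronal differences of Epha7 and Epha5 were 2.64 ± 0.07 and 2.13 ± 0.04 (log2 ± SE), with adjusted p = 2.3e-11 and 1.36e-18, and their glial levels were 18.5% and 26.3% of the neuron levels.

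Epha5 was also present in oligodendrocyte precursors. It stood at 529, 576 and 599 CPM there and at 101, 116 and 147 CPM in oligodendrocytes. Every precursor library was above every oligodendrocyte library, and the log2 difference (precursors minus oligodendrocytes) was 2.28 (SE 0.05, adjusted p = 3.44e-29). The precursor level was 68.1% of the neuron level and above the markers' range in that class, whereas the oligodendrocyte level was 14.1% and inside it.

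Epha3 separated neuron types. In glutamatergic neurons it was at 594, 1247 and 1672 CPM, and in GABAergic neurons at 187, 199.9 and 238 CPM. All glutamatergic libraries were above all GABAergic ones, with a log2 difference (GABAergic minus glutamatergic) of -2.49 (SE 0.20, adjusted p = 0.000346). The glutamatergic libraries were uneven, with replicate 4 lowest, and without replicate 4 the difference was -2.66 (SE 0.06, adjusted p = 1.46e-20). Within GABAergic neurons, Epha3 was at 189 to 251 CPM in lateral septum-like and 36.9 to 104 CPM in striatal-like nuclei, a log2 difference (lateral septum-like minus striatal-like) of 1.68 (SE 0.13, adjusted p = 2.43e-07). The glutamatergic level overlapped that of fibroblasts, at 552, 787 and 1155 CPM.

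Epha7 was highest in fibroblasts, at 524, 644 and 817 CPM, and no fibroblast library overlapped the glutamatergic libraries that came next at 207 to 309 CPM. The fibroblast class held 10 to 25 nuclei per library, so that a count of 0 in its smallest library still allows 78.6 CPM (3 counts, counting error only). Over all vascular classes together, Epha7 and Epha3 differed from glia by 1.78 ± 0.10 and 2.24 ± 0.10 (log2 ± SE, vascular minus glia, adjusted p = 8.14e-46 and 6.16e-66). Without the fibroblast class these differences were 0.74 ± 0.13 and 1.07 ± 0.13 (adjusted p = 4.31e-08 and 2.03e-15), an alternative chosen after the data had been seen.

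Epha4, which binds ephrins of both classes, had its highest mean in endothelial nuclei and was also present in neurons, oligodendrocytes and astrocytes. It was at 324, 398 and 464 CPM in endothelial nuclei and at 28.9, 54.9 and 63.95 CPM in mural nuclei. Each endothelial library was above each mural library, and the log2 difference (endothelial minus mural) was 2.82 (SE 0.17, adjusted p = 8.86e-56). The endothelial level was 217% of the neuron level, above all 8 neuronal markers in that class, and the mural level was 28.3% and inside their range. Among GABAergic neurons it was at 219, 227 and 236 CPM in lateral septum-like and 30.7, 65.4 and 76.6 CPM in medial septum-like nuclei, and the log2 difference (lateral minus medial septum-like) was 2.002 (SE 0.12, adjusted p = 7.57e-14). In the oligodendrocyte lineage Epha4 was higher in oligodendrocytes (126 ± 11.9 CPM) than in precursors (47.8 ± 4.39 CPM), with a log2 difference of -1.39 (SE 0.06, adjusted p = 2.98e-21). Astrocytes held 109 ± 11.6 CPM. The oligodendrocyte and astrocyte levels were 69.0% and 59.3% of the neuron level, both above the markers' range.

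The remaining EphA receptors were sparse. Epha2, an epithelial and vascular receptor, was at 6.17, 12.6 and 26.6 CPM in mural nuclei and 3.24, 7.94 and 16.5 CPM in microglia, and the vascular minus glia difference was 4.08 (SE 0.52, adjusted p = 2.82e-13). Epha8 was at 7.15, 8.83 and 15.7 CPM in striatal-like neurons and 0.574, 0.869 and 1.28 CPM in lateral septum-like neurons, a log2 difference of -3.49 (SE 0.33, adjusted p = 5.88e-16). Epha10 went the other way between these neurons, at 95.7, 107 and 109 CPM in lateral septum-like and 10.98, 19.1 and 25.9 CPM in striatal-like nuclei, with a difference of 2.44 (SE 0.12, adjusted p = 8.15e-33).

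Ephb1, a receptor for ephrin-Bs, was highest in oligodendrocytes. It was at 669.8, 707 and 736 CPM in oligodendrocytes and at 80.1, 84.8 and 89.1 CPM in their precursors. The lowest oligodendrocyte library was far above the highest precursor library, and the log2 difference (precursors minus oligodendrocytes) was -3.05 (SE 0.05, adjusted p = 8.58e-35). Astrocytes held 157, 197 and 233 CPM and ependymal nuclei 27.6, 35.7 and 42.7 CPM, a log2 difference (astrocytes minus ependymal) of 2.43 (SE 0.08, adjusted p = 7.59e-37). The astrocyte level was 75.4% of the neuron level, the precursor level 33.0% and the ependymal level 13.8%, and the precursor and ependymal ones lay inside the markers' range. Neurons and oligodendrocytes both carried it, and Ephb1 was the only tested member that did not pass between all neurons and all glia, at -0.02 (SE 0.03, adjusted p = 0.566). Leaving ependymal nuclei and microglia out of the glia gave -0.35 (SE 0.03, adjusted p = 7.54e-10).

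Ephb1 also differed among GABAergic neurons. Lateral septum-like nuclei held 277, 291 and 304 CPM and medial septum-like nuclei 47.9, 80.1 and 132 CPM, with no overlap and a log2 difference of 1.82 (SE 0.14, adjusted p = 2.21e-07). Ephb2, the EphB receptor known for its role at excitatory synapses, was at 98.3, 144 and 155 CPM in glutamatergic and 51.3, 58.8 and 63.4 CPM in GABAergic neurons, with a difference (GABAergic minus glutamatergic) of -1.19 (SE 0.09, adjusted p = 2.3e-08). Its libraries in neuroblasts, at 134 to 195 CPM, overlapped the glutamatergic ones, and their mean of 169 ± 23.5 CPM was 104.7 CPM with barcodes of mixed classes kept.

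Ephb3 and Ephb4 were low or near 0 in neurons. Ephb3 was at 8.86, 12.4 and 12.96 CPM in precursors and 0.659, 1.09 and 1.59 CPM in oligodendrocytes, a log2 difference of 3.40 (SE 0.23, adjusted p = 1.05e-15). In astrocytes it was at 9.66 to 13.6 CPM and in ependymal nuclei at 1.44 to 4.79 CPM, a difference (astrocytes minus ependymal) of 1.81 (SE 0.23, adjusted p = 1.55e-10). Ephb4, the receptor that marks veins, was at 28.2, 55.5 and 93.6 CPM in endothelial nuclei, above every astrocyte library (10.9 to 16.2 CPM) and every mural library (5.31 to 18.2 CPM). The endothelial libraries of Ephb4 overlapped those of the small fibroblast class (0 to 31.4 CPM). Ephb4 was then compared between pooled classes. It was -3.76 (SE 0.15, adjusted p = 1.77e-13) on the log2 scale in neurons minus glia (-3.14 with barcodes of mixed classes kept) and 2.39 (SE 0.21, adjusted p = 1.12e-25) in vascular minus glia. The endothelial minus mural difference could be read only without the filter on low counts, where it was 2.56 (SE 0.40, adjusted p = 2.14e-09).

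**Figure D3:**
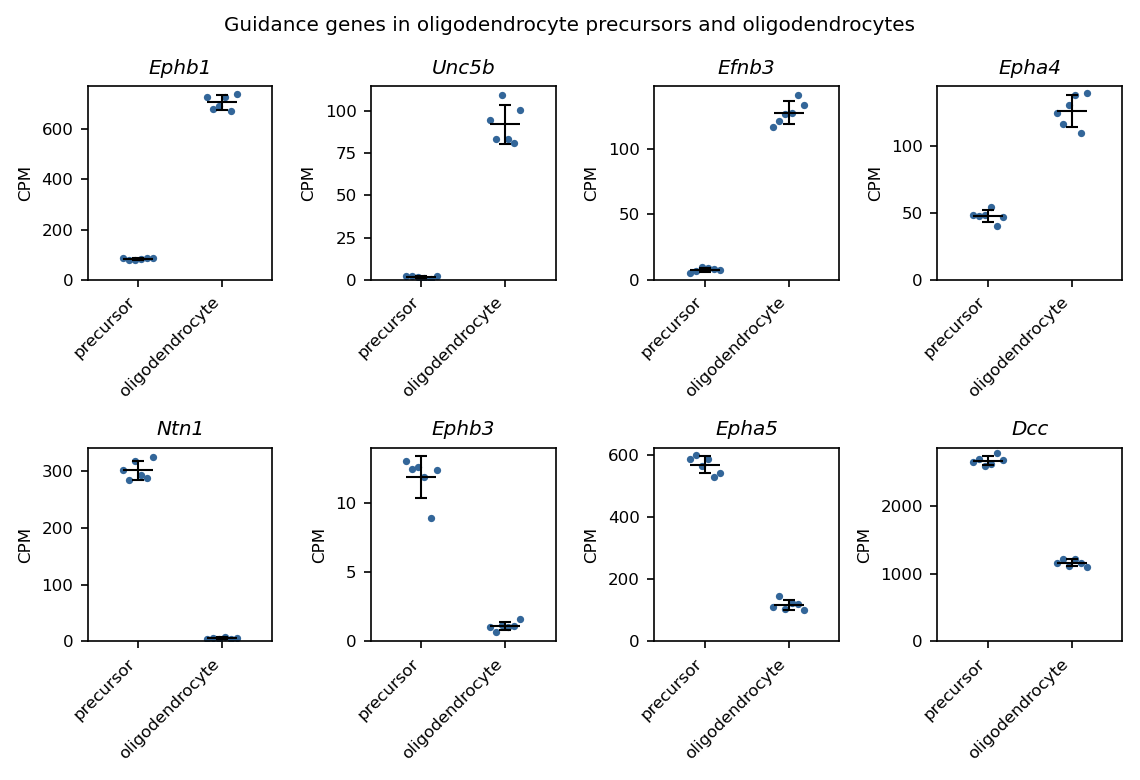
Level (CPM, axes from 0) of 8 members in oligodendrocyte precursors and oligodendrocytes, with 1 point for each of 6 libraries and bars for mean ± SD. The libraries of the 2 classes do not overlap in any panel: Ephb1, Unc5b, Efnb3 and Epha4 were higher in oligodendrocytes and Ntn1, Ephb3, Epha5 and Dcc were higher in precursors.

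Of the ephrins, Efnb3 followed oligodendrocytes in the way Ephb1 did. Efnb3, a transmembrane ephrin known as a midline barrier to corticospinal axons, was at 117, 127 and 141 CPM in oligodendrocytes and at 5.56, 7.98 and 10.1 CPM in precursors. No library of one class reached the other, and the log2 difference (precursors minus oligodendrocytes) was -4.02 (SE 0.09, adjusted p = 6.63e-30). In neurons it was at 20.4 to 22.6 CPM. Efna1, a ligand of EphA receptors that is known in vessels, was at 6.36 to 7.97 CPM in oligodendrocytes and 0.371 to 2.43 CPM in precursors, a log2 difference of -2.89 (SE 0.31, adjusted p = 2.68e-10). Its endothelial libraries ran from 3.34 to 18.8 CPM and overlapped those of oligodendrocytes.

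Efna5, a lipid-anchored ligand of EphA receptors, was at 792, 951 and 1289 CPM in glutamatergic neurons and 728, 877 and 1025 CPM in neuroblasts, which overlapped. Astrocytes held 420.1, 437 and 451 CPM, which is 71.1% of the neuron level, and oligodendrocyte precursors only 29.9, 36.998 and 53.8 CPM, which is 6.51% of it. Neurons exceeded glia by 1.55 (SE 0.04, adjusted p = 2.43e-13) on the log2 scale. Efnb2, the ephrin that marks arteries, was at 71.7, 105 and 124 CPM in striatal-like neurons and 18.6, 21.2 and 26.4 CPM in lateral septum-like neurons, a log2 difference (lateral septum-like minus striatal-like) of -2.30 (SE 0.11, adjusted p = 2.57e-28). It was also at 25.1, 42.4 and 65.8 CPM in endothelial and 0, 10.6 and 12.3 CPM in mural nuclei, a pair that could be read only without the filter on low counts, at 2.32 (SE 0.44, adjusted p = 1.35e-06). Efnb1 was at 0 to 32.1 CPM in fibroblasts and 5.69 to 13.8 CPM in neuroblasts, which overlapped.

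The Slits divided the neuron types. Slit1 was at 159, 266 and 338 CPM in glutamatergic neurons and at 150.2, 162 and 175 CPM in lateral septum-like neurons. Striatal-like neurons held 18.3, 34.7 and 45.3 CPM and medial septum-like neurons 16.7, 33.3 and 51.2 CPM, and the libraries of both lay below every lateral septum-like library. The log2 difference of lateral septum-like neurons was 2.16 (SE 0.11, adjusted p = 4.64e-28) against striatal-like and 2.25 (SE 0.15, adjusted p = 2.45e-12) against medial septum-like neurons. Slit1 in glia was 8.39% of the neuron level, and the neurons minus glia difference was 3.78 (SE 0.04, adjusted p = 1.21e-20).

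Slit3 had the reverse order between the first 2 of these classes. Striatal-like neurons held 1017, 1265 and 1394 CPM and lateral septum-like neurons 261, 273 and 304 CPM. Every striatal-like library was above every lateral septum-like one, with a log2 difference (lateral septum-like minus striatal-like) of -2.21 (SE 0.06, adjusted p = 2.06e-43). In glia Slit3 was at 14.5 to 22.8 CPM, 6.35% of the neuron level, and neurons exceeded glia by 4.19 (SE 0.07, adjusted p = 7.65e-14). Slit2 was shared by neurons, ependymal nuclei and astrocytes. It was at 496, 612 and 674 CPM in ependymal nuclei, 311, 355 and 381 CPM in astrocytes and 281, 299 and 307 CPM in neurons as a whole. The ependymal libraries overlapped those of glutamatergic neurons (373 to 643 CPM) and lay above all astrocyte libraries, with a log2 difference (astrocytes minus ependymal) of -0.75 (SE 0.04, adjusted p = 2.79e-25). Vascular nuclei were below glia by a log2 difference of -1.23 (SE 0.09, adjusted p = 9.46e-36), and with barcodes of mixed classes kept the value was -0.51 (SE 0.22, adjusted p = 0.109).

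Robo1, a Slit receptor, was highest in striatal-like neurons. There it was at 3646, 3869 and 4309.9 CPM, against 1494, 1555 and 1658 CPM in lateral septum-like neurons. No libraries overlapped, and the log2 difference (lateral septum-like minus striatal-like) was -1.39 (SE 0.06, adjusted p = 7.09e-41). Oligodendrocyte precursors held 1315 ± 59.4 CPM and oligodendrocytes 777 ± 65.9 CPM, a log2 difference of 0.77 (SE 0.04, adjusted p = 1.04e-18). The precursor level was 73.3% of the neuron level, above the markers' range, and the oligodendrocyte level was 43.3% and inside it.

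Robo2 was highest in neuroblasts. Neuroblasts, which are known to migrate under Slit control through the walls of the ventricle, held 2875, 2959 and 3846 CPM, and fibroblasts 850.5, 1329 and 1938 CPM. Neither overlapped the other or any class below them. With barcodes of mixed classes kept, the neuroblast mean was 1462 CPM in place of 3114 ± 374 CPM. Among neurons, striatal-like nuclei held 250.2 to 468 CPM, medial septum-like 249 to 552 CPM and lateral septum-like 171 to 201 CPM. The lateral septum-like minus striatal-like difference was -1.01 (SE 0.14, adjusted p = 0.000685) and the lateral minus medial septum-like difference was -1.14 (SE 0.12, adjusted p = 4.21e-06).

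Robo3, a Robo variant known from commissural axons, was found mainly in the medial septum-like neurons, and no other class had a mean above 3.71 CPM. It was at 5.26, 21.7 and 34.7 CPM there, on 83 UMIs in all, and at 0.083, 0.696 and 0.753 CPM in lateral septum-like neurons, on 85 UMIs. Every medial septum-like library was above every lateral one, and the log2 difference (lateral minus medial septum-like) was -5.31 (SE 0.39, adjusted p = 2.79e-20). The next class, neuroblasts, had 0 to 9.87 CPM, and its highest library was above the lowest medial septum-like one. The medial septum-like class had only 22 to 39 nuclei per library. Under a stricter assignment of nuclei its mean Robo3 level was 11.4 CPM and the difference -4.88 (SE 0.52, adjusted p = 1.28e-13).

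Netrin 1 (Ntn1) was highest in classes of 3 lineages. Mural nuclei held 389, 475 and 596 CPM, oligodendrocyte precursors 285, 297 and 326 CPM and striatal-like neurons 133, 187 and 225 CPM. These 3 classes did not overlap each other or any class below. In oligodendrocytes Ntn1 was at 3.75, 5.66 and 8.14 CPM, and the log2 difference (precursors minus oligodendrocytes) was 5.74 (SE 0.08, adjusted p = 1.23e-35). In lateral septum-like neurons it was at 18.3, 20.8 and 24.6 CPM, and the difference from striatal-like neurons was -3.15 (SE 0.09, adjusted p = 2.2e-52). Endothelial nuclei held 61.4, 66.03 and 113 CPM, with an endothelial minus mural difference of -2.75 (SE 0.14, adjusted p = 2.05e-75). The mural and precursor levels were 1615% and 989% of the neuron level. Smaller differences of Ntn1 separated ependymal nuclei from astrocytes (-1.06 ± 0.10, astrocytes minus ependymal, adjusted p = 1.99e-14) and GABAergic from glutamatergic neurons (1.002 ± 0.11, adjusted p = 3.06e-07).

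Dcc, the attractive netrin receptor, was broad. It was at 2716, 4464 and 5137 CPM in neuroblasts, 2742, 2915 and 3201 CPM in striatal-like neurons and 2594, 2663 and 2777 CPM in oligodendrocyte precursors. Neuroblast and striatal-like libraries overlapped, as did striatal-like and precursor libraries. With barcodes of mixed classes kept, the neuroblast mean of Dcc was 2743 CPM in place of 4253 ± 972 CPM. Oligodendrocytes held 1105 to 1224 CPM, below every precursor library, with a log2 difference (precursors minus oligodendrocytes) of 1.21 (SE 0.04, adjusted p = 2.63e-25). Astrocytes held 797 to 958 CPM and ependymal nuclei 224 to 335 CPM, a difference of 1.58 (SE 0.05, adjusted p = 2.16e-38), and these were 46.8% and 15.7% of the neuron level, inside the markers' range.

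Among the Unc5 receptors, Unc5b was the one that changed most along the oligodendrocyte lineage. Unc5b, a receptor that is also known from vessels, was at 81.04, 88.8 and 109 CPM in oligodendrocytes and 0.77, 1.94 and 2.62 CPM in precursors. The classes did not overlap, and the log2 difference (precursors minus oligodendrocytes) was -5.61 (SE 0.13, adjusted p = 3.21e-29). Mural nuclei held 30.8, 50.03 and 74.3 CPM and endothelial nuclei 15.6, 28.1 and 39.9 CPM, and their libraries overlapped. In lateral septum-like neurons it was at 12.2 to 17.1 CPM, against 0 to 4.97 CPM in striatal-like neurons (2.93 (SE 0.34, adjusted p = 3.57e-12)) and 3.26 to 13.1 CPM in medial septum-like neurons (1.19 (SE 0.29, adjusted p = 0.000611)). The lateral septum-like minus striatal-like difference was 3.68 under a stricter assignment of nuclei and 2.09 with mixed barcodes kept.

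Unc5c was nearly level along the same lineage. It was at 1647, 1725 and 1869 CPM in oligodendrocytes and 1490.5, 1618 and 1747 CPM in precursors, which overlapped, and the log2 difference was -0.11 (SE 0.04, adjusted p = 0.0128). Both lay above every other class. Among neurons it was at 670.4, 1192 and 1306 CPM in glutamatergic and 375, 421 and 439.6 CPM in GABAergic nuclei, a log2 difference (GABAergic minus glutamatergic) of -1.41 (SE 0.16, adjusted p = 0.00137). Replicate 4 held the lowest glutamatergic level, and without replicate 4 the difference was -1.57 (SE 0.05, adjusted p = 1.2e-18). The glutamatergic nuclei of that replicate also held more Slc17a7, at 49.6 CPM against 17.9 to 25.1 CPM in the others, and less Slc17a6, at 191.8 CPM against 205.7 to 290.3 CPM, and the part of this difference in markers was not tested. Medial septum-like neurons held 708 to 1126 CPM and lateral septum-like neurons 259.5 to 335 CPM, with a difference (lateral minus medial septum-like) of -1.52 (SE 0.11, adjusted p = 2.09e-08). Vascular nuclei were below glia by a log2 difference of -2.52 (SE 0.08, adjusted p = 1.88e-105).

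Unc5d and Unc5a were neuronal. Unc5d was at 1508, 1589 and 1695 CPM in neurons and 123, 149 and 179 CPM in glia, 9.27% of the neuron level, with a log2 difference of 3.65 (SE 0.07, adjusted p = 3.14e-12). Medial septum-like and cholinergic neurons, which overlapped, held the highest Unc5d levels. Unc5a was at 18.3 to 21.5 CPM in neurons and 2.5 to 3.85 CPM in glia, a difference of 2.84 (SE 0.08, adjusted p = 9.06e-16), with the glial level at 16.0% of the neuron level.

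**Figure D4:**
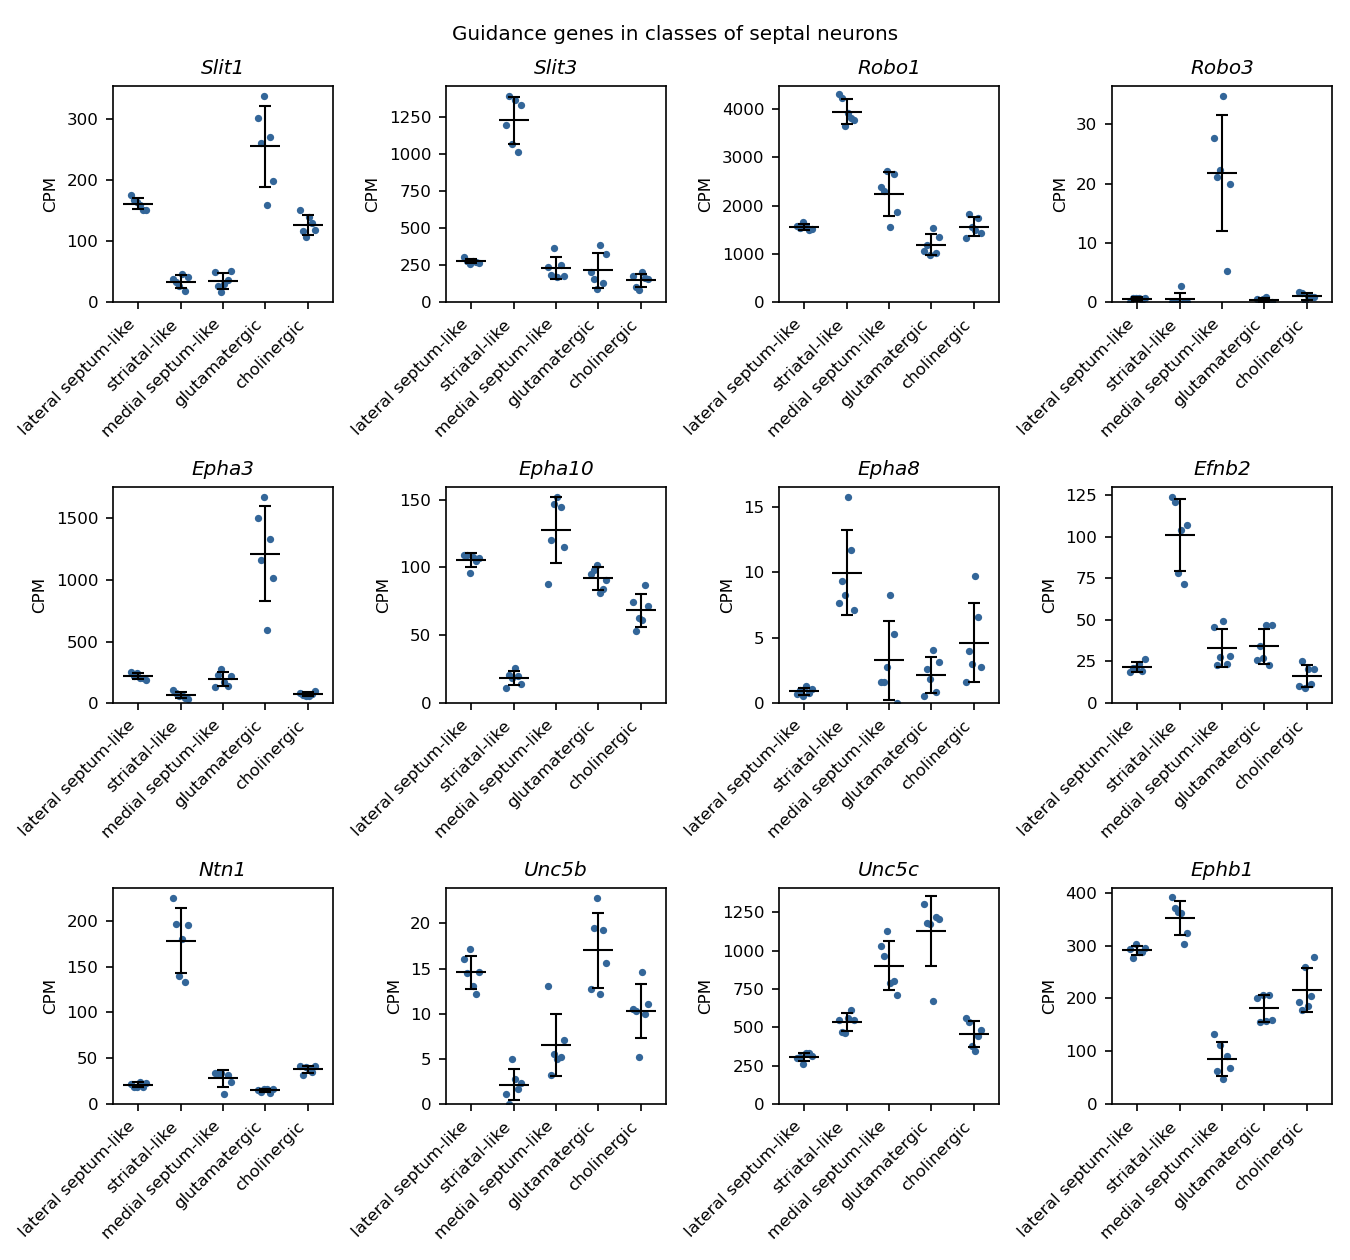
Level (CPM, axes from 0) of 12 members in 5 classes of neurons, with 1 point for each of 6 libraries and bars for mean ± SD. Slit3, Robo1, Efnb2, Epha8 and Ntn1 are highest in striatal-like neurons, Robo3 in medial septum-like neurons, and Epha3, Slit1, Unc5b and Unc5c in glutamatergic neurons, where replicate 4 is lowest for Epha3, Slit1 and Unc5c.

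The differences above come from edgeR's quasi-likelihood test on UMIs summed per library and class, with the library as a block and Benjamini-Hochberg adjustment over all genes tested. Neurons and glia differed in most guidance genes. Of 32 members tested, 22 were higher in neurons and 9 in glia, and 1 did not pass. Over all 19268 genes tested, 43.4% were called higher in neurons and 42.3% in glia, so a call by itself is common here, and the shares of the members were 68.8% and 28.1%. The median log2 difference of the members was 1.04, against 0.02 over all genes. The members higher in glia were Efna1, Efna2, Efnb3, Epha1, Ephb3, Ephb4, Unc5b, Unc5c and Ntn1. With UMI totals alone as the scaling, the median over all genes moved by -0.21, the split over all genes went from 8364 higher and 8146 lower in neurons to 6718 and 9902, and the members' counts were 21 and 10.

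Among 40 partner genes, which hold co-receptors, other netrins and signalling proteins downstream of these receptors, 38 were tested in neurons against glia. Of these, 17 were higher in neurons, 17 were higher in glia and 4 did not pass. Rgma, a ligand of the netrin receptor neogenin, was at 5.58 ± 0.802 CPM in neurons and 135 ± 9.28 CPM in glia, a log2 difference of -4.39 (SE 0.05, adjusted p = 5.61e-20). Dock1, an activator of Rac that acts downstream of Dcc, differed by -4.15 ± 0.06 (log2 ± SE) and Ntng2, a lipid-anchored netrin relative, by -2.97 ± 0.15, both higher in glia. Ntng1, its close relative, was higher in neurons by 3.55 ± 0.06. The adjusted p-values of these 3 were 2.37e-15, 3.45e-08 and 4.82e-14.

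Vascular nuclei carried more Epha2, Ephb4, Epha3, Epha7 and Ntn1 than glia, and less Ephb3, Ephb1, Unc5c, Efnb3 and Dcc. Of 29 members tested, 14 were higher in vascular nuclei, 11 in glia and 4 did not pass, against 23.8% and 31.7% of 15964 genes called in these directions. The median log2 difference was 0.32 for the members and -0.11 over all genes. Ephb1 differed by -2.85 ± 0.10, Efnb3 by -2.25 ± 0.20, Dcc by -1.82 ± 0.07 and Ntn1 by 1.53 ± 0.08 (log2 ± SE, vascular minus glia), with adjusted p = 2.83e-88, 1.54e-23, 9.1e-80 and 7.69e-52. Epha7 and Epha3 were unevenly spread over the vascular classes, with means of 656 and 841 CPM in the 111 fibroblasts, 75.7 and 95.2 CPM in endothelial nuclei and 62.4 and 39.4 CPM in mural nuclei. Their levels in vascular nuclei as a whole were 71.6% and 61.5% of the neuron levels, inside the markers' range, and the part of neuronal RNA in them was not tested. Without the fibroblast class 12 members were higher in vascular nuclei and 12 in glia, Efnb1 no longer passed (1.17, SE 0.55, adjusted p = 0.0615), and Robo2 went from 0.18 (adjusted p = 0.0377) to -1.40 (SE 0.10, adjusted p = 6.44e-44). Efna1 and Efnb1 were called higher in vascular nuclei, although their libraries overlapped (1.81 to 12.3 CPM against 2.17 to 3.14 CPM for Efna1, and 1.81 to 8.46 CPM against 1.08 to 1.88 CPM for Efnb1). Epha6, Unc5d, Slit1 and Slit3 were also called higher in vascular nuclei, and stood at 14.1%, 14.6%, 14.9% and 14.7% of their neuron levels there, against 8.92%, 9.27%, 8.39% and 6.35% in glia. The median of the 8 neuronal markers moved the same way, at 18.9% in vascular nuclei and 11.8% in glia. The part of neuronal RNA in these calls was not tested. Ephb2 differed by -1.58 (SE 0.26, adjusted p = 8.73e-09), and with barcodes of mixed classes kept Ephb1, Ephb2 and Ephb3 differed by -2.19, -0.70 and -2.24. Against glia without ependymal nuclei (0 CPM of Epha2) and microglia (3.24 to 16.5 CPM), the Epha2 difference was 5.74. UMI totals alone moved the median over all genes by 0.16 and turned the split over all genes from 3800 higher and 5067 lower to 4768 and 4337, with the members' counts unchanged at 14 and 11.

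Of the partner genes, 16 were higher in vascular nuclei, 17 in glia and 5 of 38 did not pass. Robo4, the endothelial Robo, was at 58.3 ± 6.38 CPM in vascular nuclei and 0.149 ± 0.0923 CPM in glia, a log2 difference of 8.28 (SE 0.30, adjusted p = 4.88e-89). Flrt2, a membrane protein that binds Unc5 receptors, was higher in vascular nuclei by 3.45 ± 0.07. Dscaml1, a cell adhesion molecule, and Pak1, a kinase activated by Rac, were lower by -3.91 ± 0.11 and -2.87 ± 0.10 (log2 ± SE, vascular minus glia). The adjusted p-values of these 3 were 2.58e-121, 3.11e-117 and 8.68e-91.

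Endothelial and mural nuclei could be compared for fewer members, since only 14 of 34 passed the filter on low counts. Epha4 and Epha3 were higher in endothelial nuclei, Ntn1 was higher in mural nuclei, and 11 did not pass, against 24.3% and 23.0% of 4378 genes called in these directions. Epha3 was at 95.2 ± 18.1 CPM and 39.4 ± 12.6 CPM, a log2 difference of 1.17 (SE 0.25, adjusted p = 1.37e-05), and its endothelial level was 35.6% of the neuron level. The members' median difference was 0.10 and that of all genes -0.02. Without the filter, 5 members were higher in endothelial and 2 in mural nuclei. Of 29 partner genes tested, 13 were higher in endothelial nuclei, 7 in mural nuclei and 9 did not pass. Chn2 and Chn1, chimaerins that switch off Rac, went opposite ways. Chn2 was at 1201 ± 93.02 CPM in endothelial and 26.5 ± 11.999 CPM in mural nuclei (5.40 (SE 0.16, adjusted p = 1.5e-207)), and Chn1 was at 39.3 ± 8.14 CPM and 582 ± 71.2 CPM (-3.96 (SE 0.16, adjusted p = 1.1e-124)). Robo4 and Flrt2 were higher in endothelial nuclei by 5.53 ± 0.47 and 3.64 ± 0.14 (adjusted p = 7.13e-30 and 1.15e-126).

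**Figure D5:**
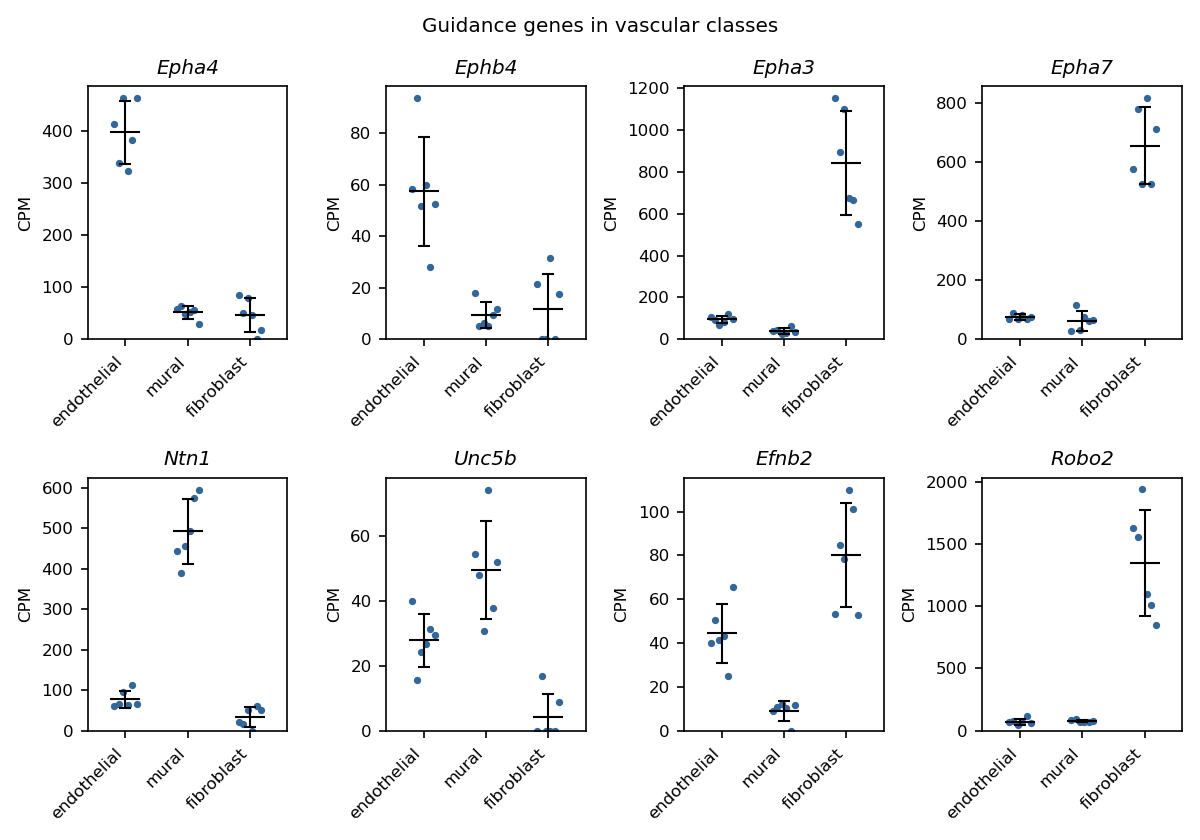
Level (CPM, axes from 0) of 8 members in endothelial, mural and fibroblast nuclei, with 1 point for each of 6 libraries and bars for mean ± SD. Epha4 and Ephb4 are highest in endothelial nuclei, Ntn1 and Unc5b in mural nuclei, and Epha3, Epha7, Efnb2 and Robo2 in fibroblasts, of which each library held 10 to 25 nuclei.

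GABAergic and glutamatergic neurons differed in 22 of 29 members tested. GABAergic neurons had more of 9 (Epha5, Epha6, Ephb1, Efnb3, Robo1, Robo3, Unc5d, Dcc and Ntn1), glutamatergic neurons had more of 13, and 7 did not pass, against 15.7% and 12.9% of 16720 genes called in these directions. Of the 22, those with a log2 difference of 1 or more in size were Epha3, Ephb3, Unc5c, Ephb2, Efnb1, Ntn1 and Robo3. Efnb1 (-1.10, SE 0.32, adjusted p = 0.0114) and Robo3 (2.56, SE 0.64, adjusted p = 0.00343) were under 5 CPM in both classes. Ephb3 was at 0.763 to 1.33 CPM and 0.813 to 9.57 CPM, and its libraries overlapped (-2.27 (SE 0.36, adjusted p = 2.53e-05)). The members' median was -0.24 and that of all genes 0.01. Partner genes stood at 13 higher in GABAergic neurons, 12 in glutamatergic neurons and 13 that did not pass, of 38. Ntng1 was at 287 ± 15.6 CPM in GABAergic and 2157 ± 305 CPM in glutamatergic neurons (-2.90 (SE 0.09, adjusted p = 7.42e-11)). Chn2 and Ngef, an exchange factor that acts below EphA4, were higher in GABAergic neurons by 2.55 ± 0.14 and 1.70 ± 0.14 (adjusted p = 1.2e-06 and 1.9e-07), and Ntng2 was higher in glutamatergic neurons by -1.94 (SE 0.30, adjusted p = 7.47e-05) with overlapping libraries.

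Lateral septum-like and striatal-like neurons, both GABAergic, differed in 21 of 28 members. Lateral septum-like neurons had more of 11, striatal-like neurons had more of 10, and 7 did not pass, against 17.6% and 14.5% of 15502 genes. On the lateral septum-like side Epha5 differed by 1.18 ± 0.07 and Ephb2 by 1.14 ± 0.13 (log2 ± SE), beside Unc5b, Epha10, Slit1 and Epha3 above. On the striatal-like side were Epha8, Ntn1, Efnb2, Slit3, Robo1 and Robo2. The adjusted p-values of Epha5 and Ephb2 were 2.72e-24 and 2.09e-12. The medians were -0.03 for the members and 0.05 for all genes. Of 37 partner genes tested, 17 were higher on the lateral septum-like side, 14 on the striatal-like side and 6 did not pass. Dscam, a cell adhesion molecule and netrin receptor, was at 1144 ± 37.5 CPM and 246 ± 86.4 CPM (2.24 (SE 0.20, adjusted p = 0.000351)), and Ntn4, a laminin-like netrin, was also higher in lateral septum-like neurons (2.57 ± 0.24, adjusted p = 3.81e-11). Vav3, an exchange factor used by Eph receptors, and Ntng2 were higher in striatal-like neurons, by -2.69 ± 0.11 and -3.19 ± 0.35 (adjusted p = 1.03e-40 and 4.12e-13).

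Fewer members separated lateral from medial septum-like neurons, a comparison added after the data had been seen. Of 29 tested, 6 were higher in lateral septum-like neurons (Epha4, Ephb1, Unc5b, Efnb3, Efna5 and Slit1), 8 were higher in medial septum-like neurons (Ephb2, Epha8, Efnb2, Robo1, Robo2, Robo3, Unc5c and Unc5d) and 15 did not pass. Over all 15386 genes tested, 14.4% and 11.1% were called in these directions. All 3 Robos were on the medial side, Slit1 was on the lateral side, and Slit2 and Slit3 did not pass. The medians were -0.08 for the members and 0.06 for all genes. Of 37 partner genes tested, 14 had more in the lateral and 7 in the medial class, and 16 did not pass. Ngef and Vav2, exchange factors below Eph receptors, had more in the lateral class (2.49 ± 0.19 and 1.63 ± 0.30, log2 ± SE). Rgma and Dock1 were higher in medial septum-like neurons (-1.53 ± 0.33 and -1.27 ± 0.14). The adjusted p-values of these 4 were 1.1e-18, 5.67e-06, 0.000107 and 2.61e-12.

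Oligodendrocyte precursors and oligodendrocytes, 2 stages of 1 lineage, differed in 24 of 26 members tested, 12 in each direction. Over all 12577 genes tested, 35.7% were called higher in precursors and 34.5% in oligodendrocytes. Ligand and receptor genes stood on both sides: Ntn1, Dcc, Robo1, Epha5 and Ephb3 in precursors, and Efnb3, Efna1, Ephb1, Epha4, Unc5b and Unc5c in oligodendrocytes. Ephb6, a kinase-dead EphB receptor, and Unc5a were also higher in precursors (1.48 ± 0.21 and 1.36 ± 0.24, log2 ± SE, adjusted p = 1.52e-07 and 6.95e-06). Epha3, Epha6, Epha10, Efna5, Slit3 and Unc5d were called higher in oligodendrocytes too. Their levels were 7.67% to 12.3% of the neuron level there and 4.66% to 7.66% in precursors. The median of the 8 neuronal markers was 10.4% in oligodendrocytes and 10.6% in precursors. Slit1, Slit2, Efnb2, Robo2 and Unc5a, called higher in precursors, were also inside the markers' range. The part of neuronal RNA in these calls was not tested. The medians were -0.15 for the members and -0.01 for all genes. With barcodes of mixed classes kept, the differences of Unc5b, Ntn1, Efnb3 and Ephb3 were smaller, at -4.07, 4.81, -3.26 and 2.44. Partner genes stood at 21 higher in precursors, 13 in oligodendrocytes and 3 that did not pass, of 37. Dscam was at 3967 ± 124 CPM in precursors and 204 ± 24.2 CPM in oligodendrocytes (4.30 (SE 0.05, adjusted p = 4.65e-34)), and Pak1 was at 66.5 ± 6.18 CPM and 1123 ± 64.7 CPM (-4.06 (SE 0.05, adjusted p = 1.25e-36)). Vav3 and Vav2 were higher in precursors by 3.71 ± 0.09 and 3.19 ± 0.17 (adjusted p = 5.6e-24 and 5.85e-17).

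Astrocytes and ependymal nuclei, which share a radial glial origin, differed in 17 of 25 members tested. Astrocytes had more of 12 and ependymal nuclei more of 5 (Slit2, Ntn1, Unc5c, Unc5d and Epha6), and 8 did not pass, against 35.1% and 36.6% of 14081 genes called in these directions. Both secreted ligands that passed, Slit2 and Ntn1, were on the ependymal side. Ephb4 was at 10.9 to 16.2 CPM in astrocytes and 0.534 to 4.32 CPM in ependymal nuclei (2.17 (SE 0.22, adjusted p = 3.16e-13)). Unc5d and Epha6 in ependymal nuclei were 14.3% and 10.3% of the neuron level, against 9% and 8.82% in astrocytes, and the summed neuron markers were at 11.8% and 9.97%. The medians were 0.29 for the members and 0.01 for all genes. Of 36 partner genes tested, 20 were higher in astrocytes, 13 in ependymal nuclei and 3 did not pass. Vav3 (4.47 ± 0.10) and Farp1, an exchange factor known at synapses (3.08 ± 0.05), were higher in astrocytes, and Nck2, an adaptor that binds ephrin-Bs (-3.78 ± 0.05), and Tiam1, a Rac activator (-2.78 ± 0.07), were higher in ependymal nuclei (log2 ± SE, astrocytes minus ependymal). The adjusted p-values of these 4 were 2.54e-44, 4.57e-55, 9.53e-56 and 5.67e-44.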

How the data were processed

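Single-nucleus RNA was counted in 6 septal libraries. The authors deposited UMI counts per gene and barcode; Cell Ranger 5.0.0 is named per the file headers and Cell Ranger 3.1.0 with STAR per the submitters' processing notes, and the labels and headers name no genome build. The values are raw counts, and feature symbols and barcodes were read as deposited.

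Assignment used 76 marker genes in all. Barcodes with at least 500 genes were assigned to 10 broad classes by Poisson likelihood, with 5 log-likelihood units over the next class and at least 2 own markers. Neuron types were set by marker UMIs alone. GABAergic neurons needed 3 UMIs and 4 times the glutamatergic ones. Glutamatergic neurons needed 2 UMIs and more than the GABAergic ones, and cholinergic neurons needed 3. The first types named also needed under 2 cholinergic UMIs. GABAergic subclasses were assigned by likelihood with the same margin. Barcodes that 2 classes fitted better by 5 units were removed as mixed, which was the only treatment of doublets. The pair of neuron and neuroblast was not tried in that step, so mixtures of these classes were not sought. No member was a marker. The markers were listed first, and the scoring rule was set after the files were seen. The members and lists were chosen with earlier results of these data known.

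Counts were summed per library and class. CPM divides by all UMIs of that sum. edgeR 4.0.16 (glmQLFit, glmQLFTest) in R 4.3.3 used TMM factors, filterByExpr and the library as a block, since both classes of a pair come from the same library. P-values were adjusted by Benjamini-Hochberg over all genes tested, with a threshold of 0.05, and SE is the difference divided by the square root of F. The fit was also run on simulated counts for neurons against glia and for endothelial against mural nuclei only. Their spread between libraries was fixed and not taken from these data, so the run cannot show how the fit behaves here. Named members pass this threshold with a log2 difference of at least 1 and 5 CPM in the higher class (at most 14 a comparison, and 4 partner genes), or reach 10 CPM in a class. A few smaller differences are given beside them and were chosen after their values were seen. The smallest libraries of a class limit precision: a count of 0 allows 3 counts, which is 78.6 CPM in fibroblasts and 5.00 CPM in striatal-like neurons. These limits cover counting error only. Alternatives were RLE factors, UMI totals alone, no filter, DESeq2 1.42.0, no block, 1000 genes per barcode, a stricter assignment, mixed barcodes kept, glia without ependymal nuclei and microglia, vascular nuclei without fibroblasts, and leaving out each library.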

Additional observations from a re-analysis of the deposited data

Results flagged for a closer look

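Of 301 levels of members by class tested for a library far from the other 5, 10 were past the 95% limit of Dixon's ratio (0.625 for 6 samples), and chance flags about 1 in 20. In each case 1 library stood apart from the range of the others. In striatal-like neurons Epha6 was at 995.8 CPM in replicate 4 against 688.8 to 782.6 CPM. In ependymal nuclei Epha7 was at 63.6 CPM in replicate 2 against 37.4 to 44.6 CPM. In lateral septum-like neurons Epha10 was at 95.7 CPM in replicate 3 against 105.0 to 109.2 CPM. In fibroblasts, the smallest class, Ephb2 was at 60.6 CPM in replicate 5 against 0 to 16.9 CPM, and Slit3 was at 184.1 CPM in replicate 6 against 0 to 50.8 CPM. In oligodendrocyte precursors Ephb3 was at 8.86 CPM in replicate 5 against 11.9 to 13.0 CPM, and Robo2 was at 58.8 CPM in replicate 6 against 69.0 to 74.9 CPM. In neuroblasts Slit2 was at 808.5 CPM in replicate 3 against 267.6 to 444.7 CPM, and Robo2 was at 3846 CPM in replicate 6 against 2875 to 3159 CPM. In glutamatergic neurons Unc5c was at 670.4 CPM in replicate 4 against 1171 to 1306 CPM.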

How the results depend on the processing

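Over 76 named or tested differences and 1113 alternative values, 1105 kept their direction and their side of the threshold, 3 moved past it, 2 fell short of it and 3 changed sign. All 3 changes of sign were Ephb1 in neurons minus glia, which was -0.02 and did not pass: it was 0.0111 without the filter on low counts, 0.0078 without replicate 1 and 0.0041 without replicate 6, and leaving out each replicate in turn gave -0.0596 to 0.0078. The 3 that moved past the threshold were also Ephb1, with UMI totals alone (-0.23), a stricter assignment (-0.09) and glia without ependymal nuclei and microglia (-0.35). Slit2 in vascular nuclei minus glia fell short with mixed barcodes kept, at -0.51, and Efnb1 in the same comparison without the fibroblast class, at 1.17, an alternative added after the data were seen. Of 230 counts of members, 226 stayed within 1.5 times. The exceptions were endothelial against mural nuclei, where 2 and 1 members became 5 and 2 without the filter and 5 and 3 with mixed barcodes kept. Without the replicate block, the library as a pairing of the 2 classes, the members higher in neurons and in glia stayed at 22 and 9, and no count moved by over 1.5 times. Of 84 levels recomputed, 75 stayed within 1 SD. Depth is least in fibroblast, mural, neuroblast and endothelial nuclei, where a count of 0 in the smallest library allows 78.6, 18.5, 17.1 and 11.7 CPM. The cause of these changes was not tested.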
